A study of Mus musculus with 3 samples.

Results

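Myeloid growth factor receptors are the surface proteins through which blood-forming cells and their progeny read the colony-stimulating factors and related cytokines. The 9 genes described here were chosen by name, as Csf3r, Csf2ra, Csf2rb, Csf2rb2, Csf1r, Kit, Flt3, Il6ra and Il3ra. All 9 were found among the 16072 named genes of the deposited expression table. Expression was measured by RNA-seq in Ly6G+ myeloid cells of the bone marrow (BM), a population made up mainly of neutrophils and their late precursors. The C57BL/6 mice were used at an age of 6 to 10 weeks. Every mouse carried B16.F10 melanoma cells, placed under the skin 1 week before an adeno-associated virus (AAV) vector was given into muscle. In AAV-IL27 the vector made the animal produce murine IL-27 from a ubiquitously active promoter, and in AAV-ctrl the vector was empty. Cells were collected 3 weeks after the vector, in an account that calls them Gr-1+ and does not mention the tumour. The design text counts 4 mice but lists 3, which gave 2 AAV-ctrl libraries and 1 AAV-IL27 library, so no p-value is given. The deposited table has 1 further column that is named as an AAV-IL27 replicate, but no listed sample carries that name, so it was left aside. Each AAV-IL27 value is therefore that of a single library, and the spread among AAV-IL27 mice was not assessed.

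The receptors fall into distinct classes. The G-CSF receptor (Csf3r), the GM-CSF receptor α chain (Csf2ra), the IL-3 receptor α chain (Il3ra) and the IL-6 receptor α chain (Il6ra) belong to the cytokine receptor family, which has no enzyme of its own and works through Janus kinases and STAT factors. The α chains of the GM-CSF and IL-3 receptors bind ligand and signal only with a β chain. In mice that is either the common β chain Csf2rb, shared by GM-CSF, IL-3 and IL-5, or its close relative Csf2rb2, which serves IL-3. The M-CSF receptor (Csf1r), the stem cell factor receptor (Kit) and the FLT3 ligand receptor (Flt3) are receptor tyrosine kinases. G-CSF is the main growth factor of neutrophils, M-CSF that of monocytes and macrophages, while Kit and Flt3 are best known from stem cells, progenitors and, for Kit, mast cells.

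The β chain genes lie side by side on chromosome 15 (GRCm38), Csf2rb2 from 78282507 to 78305721 and Csf2rb from 78325800 to 78351001. Their coding sequences, of 2637 and 2691 bases, were 95.2% identical over 2631 aligned bases (GENCODE M21), with a longest identical run of 242 bases. Of all 100-base windows of the Csf2rb coding sequence, 11.0% also occurred in Csf2rb2, and of all 50-base windows 26.0%. Fragments from such stretches could be counted for either gene, so the single values of these genes are less certain than those of the other members. To show how alike they are, the 90-base ungapped stretch with the most differences is printed, with the 16 differing bases in capitals. It lies within a coding exon of each gene, at chr15:78338897-78338986 on the plus strand for Csf2rb and at chr15:78294345-78294434 on the minus strand for Csf2rb2.
Csf2rb: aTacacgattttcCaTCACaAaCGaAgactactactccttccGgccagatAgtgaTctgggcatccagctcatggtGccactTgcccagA
Csf2rb2: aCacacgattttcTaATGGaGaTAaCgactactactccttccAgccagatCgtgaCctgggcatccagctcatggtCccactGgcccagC
A stretch that is the same in both, so that a fragment inside it names neither gene, is printed once. It covers coding bases 662 to 751 of Csf2rb and 665 to 754 of Csf2rb2, across the junction of 2 exons.
shared: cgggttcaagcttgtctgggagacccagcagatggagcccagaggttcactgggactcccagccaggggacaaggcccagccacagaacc

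Expression is given in FPKM, fragments normalised to transcript length and to library size, as the authors deposited it. Because this unit is per length, levels of different genes can be ordered within a library. The table holds no counts. From the steps between low FPKM values, depth was estimated: AAV-ctrl 1 held near 18860000 fragments, AAV-ctrl 2 near 19100000 and AAV-IL27 near 18760000. Differences are AAV-IL27 minus the AAV-ctrl mean of log2(FPKM + 1). The added 1 makes differences of low genes look smaller than they are. Between the AAV-ctrl libraries, the size of this difference had a median of 0.087, a 95th percentile of 0.34 and a 99th percentile of 0.57 over 9130 genes, those whose mean FPKM was 1 or more. Neutrophil transcripts were abundant in each library. Ly6g, the antigen named in the labels, stood at 711.76 and 766.11 FPKM in AAV-ctrl and 586.29 in AAV-IL27, and Ngp, which encodes a neutrophil granule protein, at 24209 FPKM or more in each library.

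The G-CSF receptor led the group by a wide margin. Csf3r (NCBI Gene 12986, chromosome 4 from 126023441 to 126044975) had 1158.92 and 1055.09 FPKM in AAV-ctrl and 1251.24 FPKM in AAV-IL27, which placed it at rank 45, 51 and 37 among all genes. Of the summed FPKM of the 9 receptors it made up 63.2% and 61.8% in the controls and 63.5% in AAV-IL27. Csf2ra followed, then Csf2rb, Csf1r, Il6ra and Csf2rb2, and the values of neighbours in this order did not overlap over the 3 libraries. Kit and Il3ra came next and did overlap, since Il3ra lay below Kit in AAV-ctrl 1 and AAV-IL27 and above it in AAV-ctrl 2. Flt3 (NCBI Gene 14255, chromosome 5 from 147330741 to 147400489) came last, at 0.23 and 0.34 FPKM in AAV-ctrl and 0.23 in AAV-IL27. These values rest on an estimated 16, 23 and 15 fragments, with overlapping 95% Poisson intervals of 9.15 to 26.0, 14.6 to 34.5 and 8.40 to 24.7, which cover counting error only. A difference in Flt3 was not detectable at this depth.

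**Figure D1:**
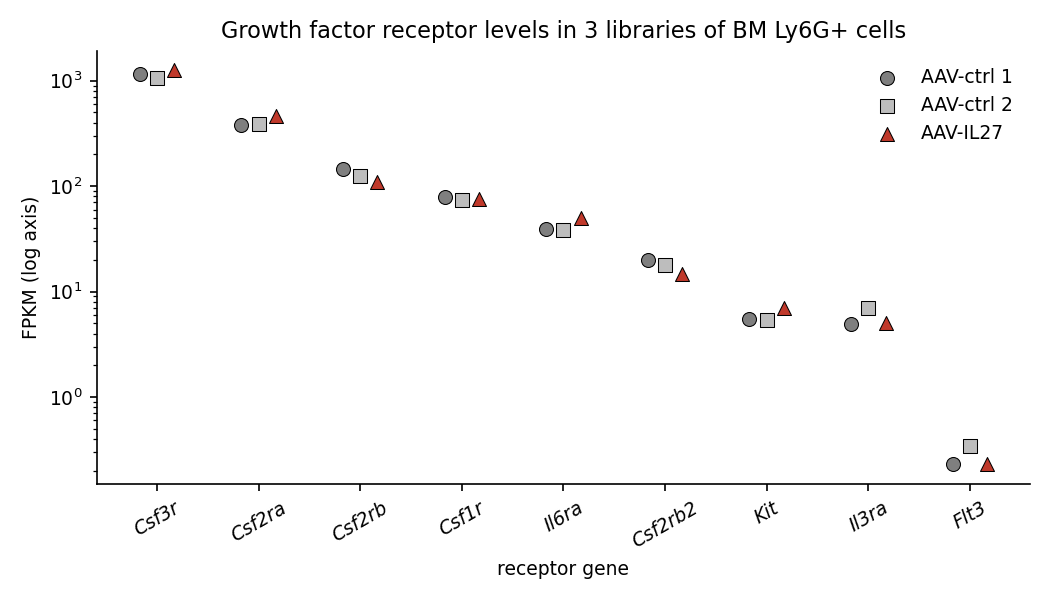
FPKM (log axis) of the 9 receptor genes, ordered by mean level, with 1 point per library: circles and squares for AAV-ctrl 1 and 2, triangles for AAV-IL27. Csf3r sits at 1055.09 FPKM or more and Flt3 below 1 in every library. The triangle is above both control points for Csf3r, Csf2ra, Il6ra and Kit and below both for Csf2rb and Csf2rb2.

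No receptor reached a doubling or halving. A gene was called lower or higher when its AAV-IL27 value was beyond both control values by 1 log2 unit or more. Of the 8 members with a mean FPKM of at least 1, that is all but Flt3, 0 were lower, against 2.32% of all genes tested, and 0 were higher, against 0.307%. At a looser limit of 0.5, which 7.01% of all genes passed downwards and 1.57% upwards, the counts were again 0 and 0. By direction alone, 4 members lay above both AAV-ctrl values, as did 38.9% of all genes. A further 2 lay below both, as did 41.9%, and 2 lay within the AAV-ctrl range, as did 19.2%. The median difference of the 8 members was 0.08, against -0.0054 over all genes tested. Nothing particular to the receptors is read from these counts. The members are therefore described singly, each beside its own control spread.

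**Figure D2:**
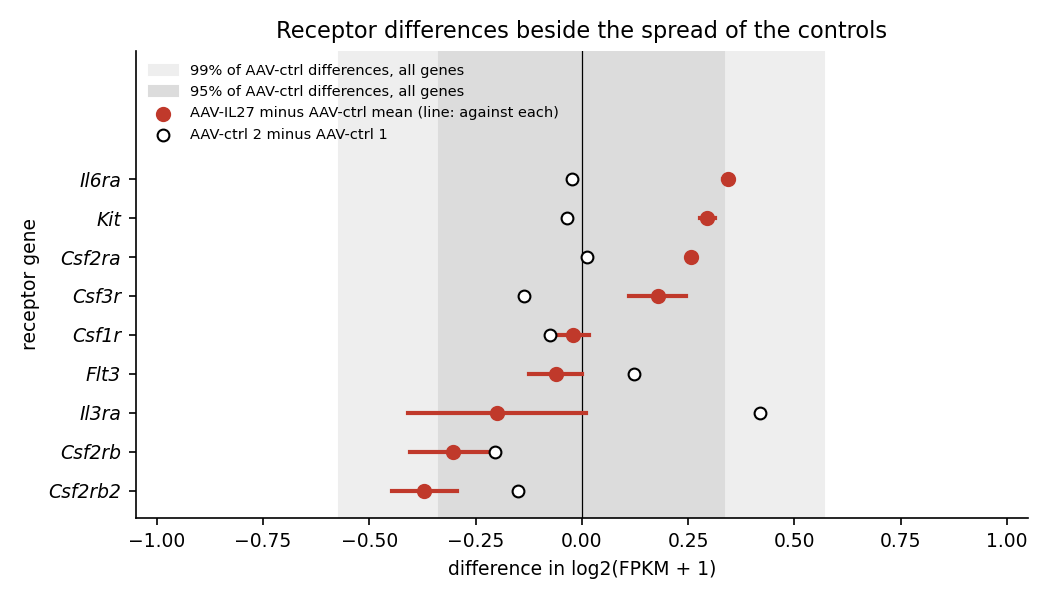
Difference in log2(FPKM + 1) for each receptor gene. Red points give AAV-IL27 minus the AAV-ctrl mean, with a line joining the differences from each AAV-ctrl library, open points give AAV-ctrl 2 minus AAV-ctrl 1, and shading marks the 95th (0.34) and 99th (0.57) percentile of the size of AAV-ctrl differences over 9130 genes. Every red point lies inside the wider band, and Il3ra has the largest difference between the controls.

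Among the cytokine receptor α chains and the G-CSF receptor, Il6ra had the largest difference. Il6ra (NCBI Gene 16194, chromosome 3 from 89869324 to 89913196) stood at 39.19 and 38.54 FPKM in AAV-ctrl (mean 38.9 ± 0.460 SD, n = 2) and at 49.60 FPKM in AAV-IL27, a log2 difference of 0.34 that sits at the 95th percentile of control differences. The AAV-ctrl libraries were close together for this gene, differing by -0.02, and the AAV-IL27 value was above both. Csf2ra (NCBI Gene 12982, chromosome 19 from 61217191 to 61228461) had 381.28 and 384.56 FPKM in AAV-ctrl and 457.90 FPKM in AAV-IL27, a log2 difference of 0.26 beside 0.01 between the controls. Again the control values nearly coincided and the AAV-IL27 value lay above them, at 119.6% of their mean. For Csf3r the log2 difference was 0.18, against -0.14 between the controls, so the AAV-IL27 library was higher than both but the margin over the nearer control, 0.11, was smaller than the gap between the controls.

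Il3ra (NCBI Gene 16188, chromosome 14 from 14345912 to 14355493) had 4.95 and 6.95 FPKM in AAV-ctrl and 4.99 FPKM in AAV-IL27. The AAV-IL27 value fell inside the AAV-ctrl range, so no direction can be given. The controls themselves differed by 0.42 on the log2 scale, and an estimated 144 and 205 fragments, with 95% Poisson intervals from 121 to 170 and from 178 to 235, put that difference beyond counting error. Libraries of the same group can thus lie further apart than such intervals, which leave out variation between mice.

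The β chains were lower in the AAV-IL27 library. Csf2rb (NCBI Gene 12983) had 144.07 and 124.81 FPKM in AAV-ctrl and 108.54 FPKM in AAV-IL27, a log2 difference of -0.30. The AAV-IL27 value lay below both controls, by 0.20 from the nearer, which is no more than the 0.21 by which the controls differed from each other. Csf2rb2 (NCBI Gene 12984) had 20.14 and 18.04 FPKM in AAV-ctrl and 14.52 FPKM in AAV-IL27, a log2 difference of -0.37, the largest among the members. It too was below both controls, and here the margin of 0.29 was wider than their gap of 0.15. Since fragments may pass between these genes, their FPKM values were also summed, giving 164.21 and 142.85 in AAV-ctrl and 123.06 in AAV-IL27, a log2 difference of -0.31. The ratio of Csf2rb to Csf2rb2 was 7.15 and 6.92 in AAV-ctrl and 7.48 in AAV-IL27. Csf2rb was the more abundant chain by a like ratio in each library.

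In bulk RNA, fewer cells of a type and less RNA per cell cannot be told apart. Transcripts of macrophages, which also carry GM-CSF receptors, were lower in the same library. Of 10 macrophage markers, 9 were lower by at least 1 log2 unit than both controls, and their summed FPKM was 523.1 and 556.64 in AAV-ctrl and 158.05 in AAV-IL27. C1qa, a complement component and the most abundant of them, had 137.53 and 145.73 FPKM in AAV-ctrl and 39.40 in AAV-IL27. Eosinophils carry the common β chain as well, as the partner of the IL-5 receptor α chain. Of 4 eosinophil markers with a mean FPKM of at least 1, 3 were below both controls and 1 above. Over all genes tested, 41.9% were below both and 38.9% above. Ccr3 fell most, from 14.39 and 12.92 FPKM in AAV-ctrl to 2.16 in AAV-IL27. Siglecf, about as abundant, was the one above, at 9.49 and 7.44 FPKM in AAV-ctrl and 12.36 in AAV-IL27. The summed FPKM of the 6 eosinophil markers in the table was 33.46, 33.82 and 20.8, a fall that lay mostly in Ccr3. The cells are labelled Ly6G+, and Ly6G is not a usual antigen of macrophages or eosinophils, yet C1qa and Ccr3 were measured in each library. Which cells these transcripts came from was not tested. The part of macrophages and eosinophils in the lower β chain values was not tested either.

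The GM-CSF receptor chains therefore stood in a different proportion. Csf2ra exceeded Csf2rb by a ratio of 2.65 and 3.08 in the AAV-ctrl libraries (mean 2.86 ± 0.307 SD, n = 2) and of 4.22 in the AAV-IL27 library, which is 1.47 times the AAV-ctrl mean. With both β chains summed, the ratio was 2.32, 2.69 and 3.72. Ratios within a library do not depend on how libraries are scaled to each other. The AAV-IL27 ratio lay further above the higher control than the controls lay apart. That also held for Csf3r over Csf1r (14.8, 14.2 and 16.6) and for Csf2rb over Csf2rb2 (7.15, 6.92 and 7.48). It therefore does not set the GM-CSF receptor apart, and how often other gene pairs do so was not assessed. Il6ra, too, stood in a higher ratio to its partner in AAV-IL27. Il6st, which encodes the signalling chain gp130 used by IL-6 and IL-27 alike, was low, at 0.82 and 0.80 FPKM in AAV-ctrl and 0.43 FPKM in AAV-IL27. These values correspond to an estimated 133, 132 and 69 fragments. Il6ra exceeded Il6st by a ratio of 47.8 and 48.2 in AAV-ctrl and of 115 in AAV-IL27, the library with the lower macrophage markers, whose part in the Il6st value was not tested. Il27ra, the ligand-specific chain of the IL-27 receptor, was at 0.26 FPKM or less in each library.

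**Figure D3:**
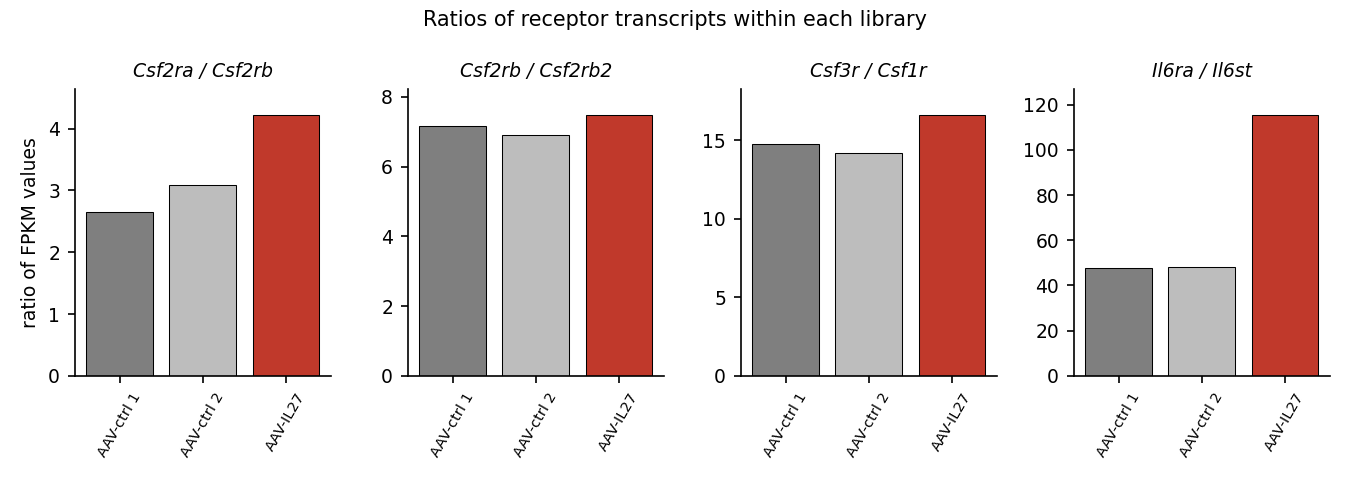
Ratio of FPKM values of 2 receptor genes within each library (bars from 0, 1 bar per library, no error since each is a single library). Csf2ra over Csf2rb was 2.65, 3.08 and 4.22 and Il6ra over Il6st 47.8, 48.2 and 115 (controls first), while Csf2rb over Csf2rb2 (7.15, 6.92 and 7.48) and Csf3r over Csf1r (14.8, 14.2 and 16.6) moved less.

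The receptor tyrosine kinases differed from each other. Csf1r (NCBI Gene 12978), the receptor for M-CSF and IL-34, had 78.57 and 74.50 FPKM in AAV-ctrl and 75.39 FPKM in AAV-IL27, within the range of the controls. Its level was thus like that of the controls in a library where 9 of 10 macrophage markers were lower by at least 1 log2 unit. Monocyte markers, the other usual companions of Csf1r, were above both controls for 5 of 7 genes, against 38.9% of all genes tested. Irf8, a transcription factor of monocyte precursors, was below both, and the list's median log2 difference was 0.46. The most abundant monocyte marker, Ly6c2, had 1023.13, 1086.23 and 1145.19 FPKM, while the defining monocyte receptor Ccr2 was at 1.43, 1.61 and 2.64 FPKM. Summed over 8 monocyte markers, FPKM was 1040 and 1107 in AAV-ctrl and 1168 in AAV-IL27. Nearly all of it came from Ly6c2, so the sum follows that gene and is no measure of monocytes. What monocytes contribute to the Csf1r value was not tested.

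Kit (NCBI Gene 16590, chromosome 5 from 75574987 to 75656722) had 5.55 and 5.39 FPKM in AAV-ctrl (mean 5.47 ± 0.113 SD, n = 2) and 6.94 FPKM in AAV-IL27. The log2 difference was 0.30, against -0.04 between the controls, and the AAV-IL27 value was above both. An estimated 540, 531 and 671 fragments lay behind these values. Markers of the cells in which Kit is best known were low. Myb, a transcription factor of progenitors and the only 1 of 8 stem and progenitor markers with a mean FPKM of at least 1, had 9.44 and 9.95 FPKM in AAV-ctrl and 8.47 in AAV-IL27. The summed FPKM of those 8 markers was 12.13, 12.48 and 10.03, and that of 6 basophil and mast cell markers 12.17, 16.15 and 13.64. The part of any of these cells in the Kit value was not tested. Early granule genes of neutrophil precursors were above both controls for 5 of 6 genes, against 38.9% of all genes tested. Mpo, which encodes myeloperoxidase, had 26.61 and 32.13 FPKM in AAV-ctrl and 35.44 in AAV-IL27, and the list summed to 82.76, 98.25 and 104.55. The list's median log2 difference of 0.28 was close to the 0.22 by which the controls differed. The part of neutrophil precursors in the Kit value was not tested either.

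**Figure D4:**
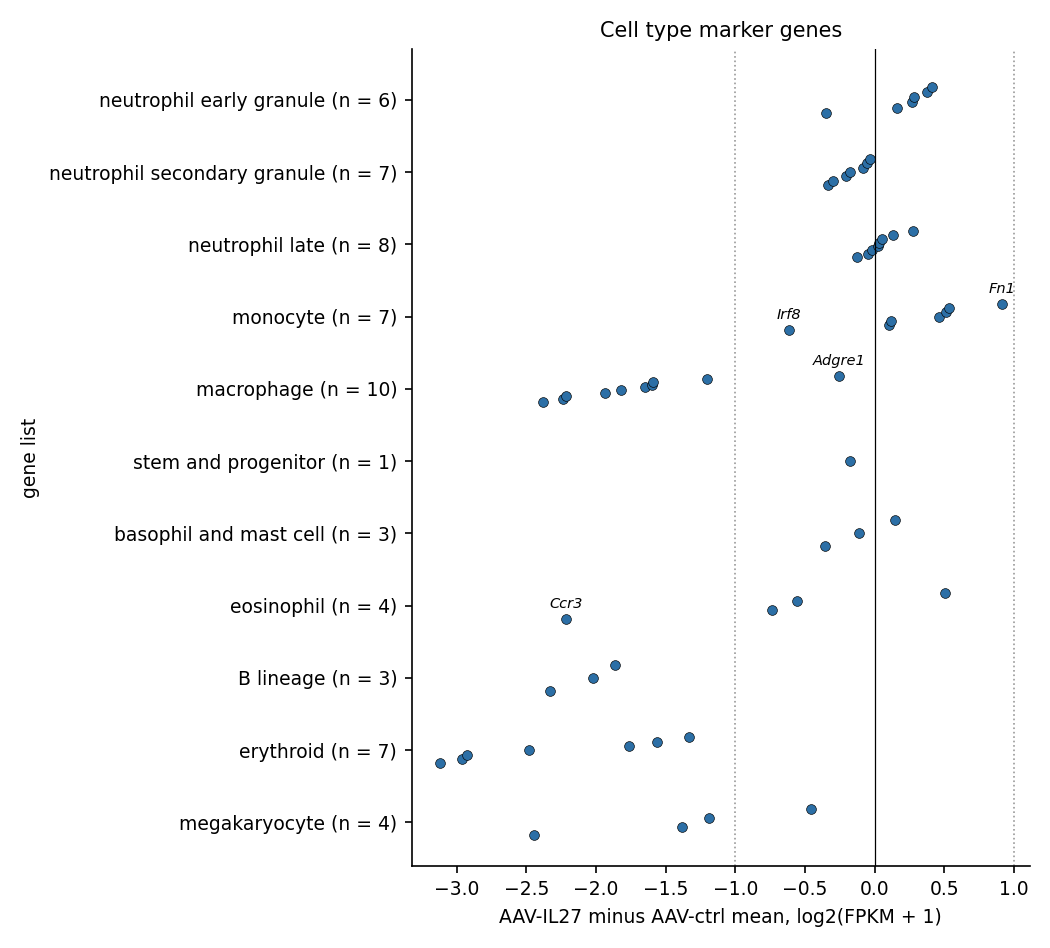
AAV-IL27 minus AAV-ctrl mean on the log2(FPKM + 1) scale for marker genes whose mean FPKM was 1 or more, 1 point per gene, by cell type. Dotted lines mark 1 log2 unit. Macrophage, B lineage and erythroid markers lie mostly beyond -1, with Adgre1 an exception among macrophage genes, whereas the neutrophil markers stay between -0.35 and 0.41.

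Neutrophil markers of later stages stayed within 1 log2 unit of the controls. All 7 secondary granule genes were below both controls, against 41.9% of all genes tested. The median log2 difference of the 7 was -0.18. Their range, from -0.33 (Ly6g) to -0.04 (Camp), reached the size of some receptor differences. Ngp, the most abundant, had 25644 and 24728 FPKM in AAV-ctrl and 24209 in AAV-IL27, a log2 difference of -0.06. Of 8 late neutrophil genes, 3 were above both controls, 2 below and 3 between, with a median of 0.03, and their summed FPKM was 22660, 24056 and 23819. None of these 15 genes was lower or higher by 1 log2 unit. Csf3r and Csf2ra, which neutrophils carry, were thus higher in a library where secondary granule genes were lower, and what part the makeup of the cells had in this was not tested. Of the other lineages, 7 of 7 erythroid and 3 of 3 B lineage markers with a mean FPKM of at least 1 were lower by at least 1. Of 4 such megakaryocyte markers, 2 were lower by at least 1 and all 4 were below both controls.

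Of the ligands, M-CSF stood out. Csf1 (NCBI Gene 12977) had 17.91 and 11.10 FPKM in the AAV-ctrl libraries (mean 14.5 ± 4.82 SD, n = 2) and 68.01 FPKM in the AAV-IL27 library, a log2 difference of 2.19. The controls differed by 0.64, beyond the 99th percentile of all genes, yet the AAV-IL27 value was 1.87 above the nearer. That margin placed Csf1 at rank 7 of 9130 genes by its excess over both controls, in a table where 0.307% of genes were higher by at least 1. Csf1 transcripts amounted to 0.228 and 0.149 of Csf1r in AAV-ctrl and 0.902 in AAV-IL27, so in that library the transcripts of the ligand came close to those of its receptor. The cell type that holds these transcripts was not tested.

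The other ligands were scarce or similar. Flt3l, which encodes the FLT3 ligand, had 5.18 and 4.49 FPKM in AAV-ctrl and 5.56 in AAV-IL27, a log2 difference of 0.17 that equals the control difference in size. Kitl, the gene of stem cell factor, was scarce but lower, at 0.69 FPKM in both controls and 0.10 in AAV-IL27. That is 14.5% of the control mean and a log2 difference of -0.62. Csf3, which encodes G-CSF, was listed at 0 in both controls and at 0.04 FPKM in AAV-IL27, as was Il5, and Il34 was at 0.03, 0.09 and 0. The genes of GM-CSF, IL-3 and IL-6 had no row among the named genes used here, so no value is given for them.

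Related receptors of the same families went in different directions. Of 14 in the list, 5 had a mean FPKM of at least 1, of which 1 was lower by at least 1 log2 unit and 0 were higher. Epor, the erythropoietin receptor, was the lower one, at 3.34 and 3.91 FPKM in AAV-ctrl and 0.83 in AAV-IL27, a log2 difference of -1.33, and it moved with the erythroid markers, whose summed FPKM was 239.76, 175.83 and 24.16. Il2rg, the common γ chain of the IL-2 family of receptors, had 13.71 and 18.88 FPKM in AAV-ctrl and 31.81 in AAV-IL27, a log2 difference of 0.94. Its excess over the nearer control, 0.72, was larger than the 0.43 between the controls. Il5ra, the partner that the common β chain takes in eosinophils, was below 0.3 FPKM in each library.

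None of the 8 kinases and STATs reported here, which act below the receptors, was lower or higher by at least 1. Tyk2, a Janus kinase used by gp130 and interferon receptors, was at the top with 10.64 and 11.43 FPKM in AAV-ctrl and 12.73 in AAV-IL27, a log2 difference of 0.19. Jak3, the kinase that pairs with the common γ chain, was at the bottom with 9.71, 7.99 and 4.78 FPKM, a log2 difference of -0.76 that was in the opposite direction to Il2rg. The list's median was 0.10. Of 11 adaptors and proximal kinases, 0 passed the limit in either direction, with a median of -0.0085 and a range from -0.08 (Pik3r1) to 0.25 (Gab2). Of 3 genes tied to shedding, the release of receptor ectodomains such as that of the IL-6 receptor, Adam17 was highest at 0.29 and Adam10 lowest at -0.05.

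Feedback regulators were more dispersed. Of 11 with a mean FPKM of at least 1, 0 passed the limit of 1 against both controls, and the median was -0.08. Socs3, which restrains signalling from the G-CSF receptor and gp130, had 49.23 and 35.52 FPKM in AAV-ctrl and 19.14 FPKM in AAV-IL27. It was below both controls, with a log2 difference of -1.09 from their mean and -0.86 from the nearer, while the controls differed by -0.46. Socs1, an inhibitor of interferon receptor signalling, had 3.35 and 3.55 FPKM in AAV-ctrl and 6.97 in AAV-IL27, a log2 difference of 0.84. The controls were close for Socs1, differing by 0.06, so Socs1 and Socs3 lay on opposite sides of their control values.

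**Figure D5:**
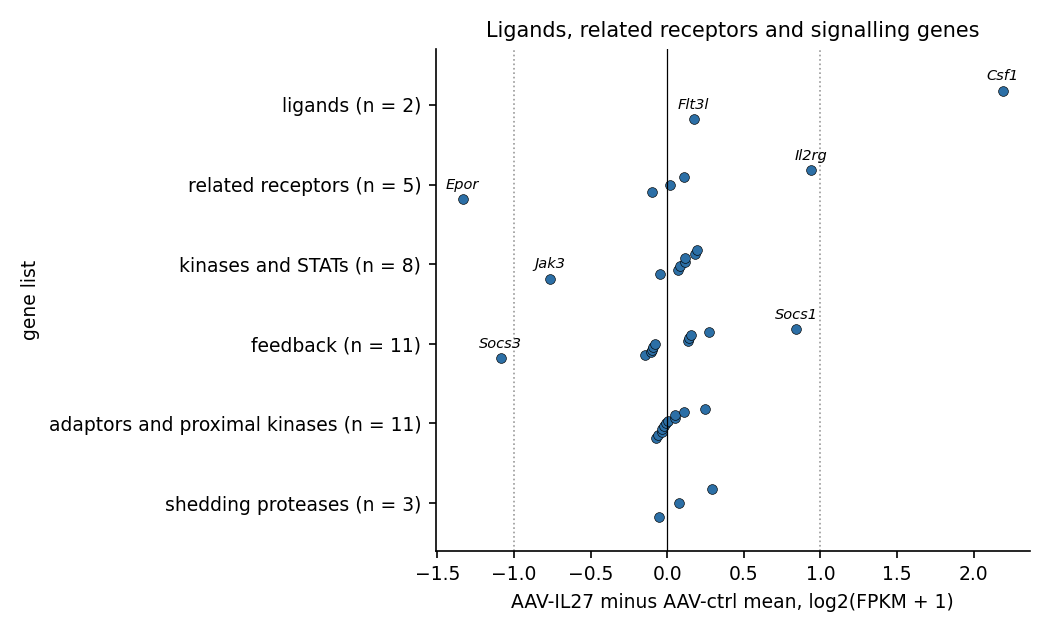
AAV-IL27 minus AAV-ctrl mean on the log2(FPKM + 1) scale for ligands, related receptors and signalling genes whose mean FPKM was 1 or more, 1 point per gene. Dotted lines mark 1 log2 unit. Csf1, at 2.19, lies farthest to the right and Epor, at -1.33, farthest to the left, while the adaptors stay between -0.08 and 0.25.

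Genes with the same profile over the 3 libraries were looked for by the Euclidean distance between their pairs of log2 differences (AAV-ctrl 2 minus AAV-ctrl 1, and AAV-IL27 minus the AAV-ctrl mean) over 6048 genes whose mean FPKM was 5 or more. The nearest to Csf3r were Ddit3, Cdc40 and Cd44, at distances of 0.0019, 0.0063 and 0.0091. The nearest to Csf2rb2, the member with the largest difference, were Dnajc15, Scamp1 and Reep5, at 0.0019, 0.0029 and 0.014. With only 3 libraries such likeness is common, since 155 genes lay within 0.05 of Csf3r and 15 within 0.05 of Csf2rb2.

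The 250 bases before a RefSeq start site were read for the 7 members with a sequence in the promoter table (GRCm38.p6). These are Csf3r, Csf2ra, Csf2rb2, Kit, Flt3, Il6ra and Il3ra. Both strands were searched for a PU.1 motif (GAGGAAG), a STAT motif (TTCNNNGAA), a C/EBP motif (TTGCNNAA) and a RUNX motif (TGTGGT). The PU.1 motif, named for the ETS factor of myeloid cells, occurred in 4 of the 7, Csf2ra, Csf2rb2, Csf3r and Kit, against 10.4% of 27025 promoters. It was present in members above and in a member below the controls, and no link between motif and direction was tested. The STAT motif occurred in Csf2rb2 alone, against 7.18% of promoters, the C/EBP motif in Il3ra alone, against 9.55%, and the RUNX motif in 0 of the 7, against 14.2%. A match is a run of letters and not a bound site. The sequences of Kit (chr5:75574737-75574986, plus strand) and Csf2rb2 (chr15:78305722-78305971, minus strand) are shown as a pair with opposite differences, with matches in capitals. For Csf2ra (chr19:61228419-61228448, minus strand) and Csf3r (chr4:126024561-126024590, plus strand), 30 bases around the PU.1 matches are shown. These bases lie within the annotated spans of the 2 genes, so they are upstream of the start used here but not of every annotated start. The same holds for the Il3ra window with its C/EBP match. In Csf2ra the matches, at 14 to 8 and 8 to 2 bases before the start, share 1 base.
Kit: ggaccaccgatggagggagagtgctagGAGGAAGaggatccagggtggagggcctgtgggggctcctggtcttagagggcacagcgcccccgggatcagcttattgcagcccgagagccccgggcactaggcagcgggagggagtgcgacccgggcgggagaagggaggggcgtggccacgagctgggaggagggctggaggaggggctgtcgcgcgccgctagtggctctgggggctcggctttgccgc
Csf2rb2: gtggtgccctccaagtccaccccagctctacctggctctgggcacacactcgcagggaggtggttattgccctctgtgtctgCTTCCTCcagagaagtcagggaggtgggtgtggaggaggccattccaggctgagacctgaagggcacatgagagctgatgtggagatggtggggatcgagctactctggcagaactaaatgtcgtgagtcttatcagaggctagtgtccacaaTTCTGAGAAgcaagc
Csf2ra: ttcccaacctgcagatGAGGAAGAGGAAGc
Csf3r: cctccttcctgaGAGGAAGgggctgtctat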

How the data were processed

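RNA-seq of BM Ly6G+ cells was analysed for 2 AAV-ctrl libraries and 1 AAV-IL27 library, grouped by their labels. The authors enriched mRNA with oligo-dT, made strand-marked cDNA and deposited FPKM values for 16073 genes, 1 of them without a symbol, which was left out. The build mm10 is named in the submitters' processing notes, and the aligner and counting tool are not given in the sources used here. The table also holds 1 column whose name is that of another AAV-IL27 replicate. No listed sample has that name, so its values were not used. Gene numbers matched RefSeq for 16035 genes.

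The members, the gene lists and the settings were chosen with earlier results of these data known. Genes whose mean FPKM was 1 or more were called when AAV-IL27 was beyond both controls by 1 or more in log2(FPKM + 1). No test was run, since 1 AAV-IL27 library gives no spread of its own. Depth was fitted to the FPKM steps of 9957 genes with a single transcript in GENCODE M21, with 70 nt taken off each length. It placed 73.8%, 63.7% and 65.5% of 141, 102 and 110 low values within 0.15 of a whole fragment, so fragment numbers are approximate, and their Poisson intervals cover counting error only. For genes with several transcripts their mean length was used. From the pathway lists 2 genes were left out and are not reported here. The named genes are the members, the ligands, the highest and lowest gene of each pathway list, genes past the limit and abundant markers. Ly6g, Ccr2, Irf8, Il5ra, Il6st, Il27ra, Adgre1 and Il2rb, the genes near the β chains and the promoter motifs were singled out after values were seen. Alternatives were pseudocounts of 0.1 and 0.01, other filters and limits, 2 rescalings and leaving out each AAV-ctrl library. Software was Biopython 1.88, matplotlib 3.10.9, scipy 1.17.1, pandas 2.3.3 and numpy 2.4.6 under Python 3.11.15, and the calling and depth steps were tested on simulated data.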

Additional observations from a re-analysis of the deposited data

How the results depend on the processing

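The counts of members lower and higher by the limit stayed at 0 under each alternative run, among them a limit of 0.5, and the counts of members below (2) and above (4) both AAV-ctrl libraries stayed the same under both rescalings and both other filters. The median log2 difference of the members, 0.08, was -0.021 with low genes kept, which adds Flt3, and 0.14 after rescaling by median ratios, which moved the median of all genes by 0.053. It ranged from 0.060 to 0.13 when either AAV-ctrl library was left out. Of 56 single-member values under alternatives, 5 lost or changed their sign, all in Csf1r, Il3ra and Flt3, none of which lay outside the AAV-ctrl range. Il3ra depended most on a single control, at -0.41 without AAV-ctrl 1 and 0.0097 without AAV-ctrl 2. Csf3r ranged from 0.11 to 0.25, Csf2ra from 0.25 to 0.32, Il6ra from 0.33 to 0.40, Kit from 0.28 to 0.35, Csf2rb from -0.41 to -0.20 and Csf2rb2 from -0.45 to -0.29. Over all genes, the counts of 212 lower and 28 higher genes became 396 and 42 with a pseudocount of 0.1, 425 and 46 with 0.01, 93 and 22 at a filter of 5 FPKM, 640 and 143 at a limit of 0.5, 39 and 5 at a limit of 2, 294 and 40 without AAV-ctrl 1, and 243 and 49 without AAV-ctrl 2. No paired analysis was possible because AAV-IL27 is a single library, which likewise could not be left out.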

Other observations

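The β chain genes have measured neighbours on chromosome 15 whose values can be set beside theirs. Within 200 kb on either side of the pair, 4 other genes had a mean FPKM of at least 1. Ncf4, which encodes a subunit of the phagocyte NADPH oxidase, had 318.96 and 341.82 FPKM in AAV-ctrl and 310.27 in AAV-IL27, a log2 difference of -0.09. Tst, the gene of the mitochondrial sulphurtransferase rhodanese, had 29.79, 34.59 and 24.55 FPKM, a log2 difference of -0.37. Its paralogue and neighbour Mpst differed by -0.15, and Ift27, at 1.54, 1.84 and 1.12 FPKM, by -0.34. All 4 lay below both controls, as Csf2rb and Csf2rb2 did, against 41.9% of all genes tested. Their differences from the nearer control were -0.04 (Ncf4), -0.27 (Tst), -0.10 (Mpst) and -0.26 (Ift27). The controls themselves differed by 0.10, 0.21, 0.10 and 0.16 in size, so the margins of Ncf4 and Mpst were small. Nothing about the region is read from this count. In these neighbours AAV-ctrl 2 was the higher control, whereas in Csf2rb and Csf2rb2 it was AAV-ctrl 1. Il2rb, the IL-2 receptor β chain gene in the same interval, was at 0.39, 0.86 and 0.65 FPKM.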
